A study of Homo sapiens with 6 samples.

Results

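The proteasome is the protease of the cytosol and nucleus that takes apart proteins marked with ubiquitin. Its genes were read here in human OVCA432 cells, an established line of high grade serous ovarian cancer, on Affymetrix U133 Plus 2.0 arrays, which carry one or more probe sets per transcript. All 6 cultures were serum-starved for 24 h and then kept in serum-free medium. The 3 treated samples received recombinant human MFAP5, a secreted microfibril glycoprotein, at 200 ng/mL for 48 h, and the 3 control samples received the solvent for as long. It is a single cell line, a single dose and a single time, and the labels call the samples independent without saying whether they came from separate passages, so p-values measure the spread between these samples. Members were the protein-coding genes whose symbol stands alone on a probe set and begins with PSMA, PSMB, PSMC, PSMD, PSME, PSMF or PSMG. The rule took 44 of the 19775 genes that had a probe set of their own, each read by its brightest probe set. Of these, 42 are subunits, activators, an inhibitor or assembly factors of the proteasome. The other two, PSMC3IP, a factor of meiotic recombination, and PSME3IP1, a protein that binds an activator, share only the prefix. PSMA6, PSMB11, PSMC5, PSMD7, PSMD13 and PSME2 were not analysed here.

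The 20S core is a barrel of alpha and beta rings, the outer rings built by PSMA proteins and the inner by PSMB proteins, of which PSMB5, PSMB6 and PSMB7 cut the substrate. The 19S cap binds and unfolds ubiquitinated substrates, through a base with a ring of PSMC ATPases and a lid that removes ubiquitin. Cells under interferon exchange the cutting subunits for PSMB8, PSMB9 and PSMB10, which form the immunoproteasome and change the peptides offered to T cells. When the proteasome is inhibited, the transcription factor NFE2L1 raises many of its genes together.

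The arrays shared a scale that the authors had set and gave an epithelial profile. Values are MAS5 signals, a linear brightness per probe set that the authors had scaled to one trimmed mean, 500.07 on all 6 arrays. Bacillus control probe sets (27 in number) match RNA that human cells do not make, and the brightest was exceeded by 27209 to 36073 probe sets on each array. All 10 epithelial and serous ovarian markers were above it on every array, with summed signals of 87506 to 98027 in control and 99108 to 107382 in MFAP5 samples. Of the 6 fibroblast markers 2 were (COL1A1 and COL1A2), and none of the 3 leukocyte or 3 endothelial markers was, although each exceeded it on at least 1 array. Summed signals were 262 to 305 and 265 to 371 for the fibroblast list, 22.2 to 128 and 70.8 to 135 for the leukocyte list, and 125 to 197 and 172 to 224 for the endothelial list, in control and MFAP5 samples. The epithelial and serous ovarian markers did not move as one, with log2 fold changes (MFAP5 minus control) from -0.41 for WT1 to 1.86 for MUC16. The part of these shifts in the results was not tested. The log2 ratio of 3′ to 5′ control probe sets, a sign of RNA quality, differed between groups by 0.030 for GAPDH and -0.014 for ACTB (exact permutation p = 0.5 and 0.6, n = 3 each, where 0.1 is the smallest possible).

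With MFAP5, most members read slightly lower on their brightest probe set. Most of these differences were not called, and no member was called higher there. Bulk RNA cannot tell fewer cells of a kind from less RNA per cell. A probe set was tested where its mean log2 signal was no lower than that of the middle probe set (a signal of 53.7), as held for 43 of the 44 members. Of these 43, 13 fell (12 of them among the 41 subunits and factors), none rose and 30 were not called (called means limma's adjusted p below 0.05 over 27307 probe sets). At an unadjusted p below 0.05, 19 members (44.2%) were lower and 0 higher, against 21.8% and 20.6% of all genes tested. The log2 fold change was below 0 for 40 of the 43, against 51.1% of all 12216 genes tested. The differences were small: the median over the members was -0.13, or 8.82% lower, beside a median of -0.0084 over all genes tested. The largest fall, that of PSMB10, was 35.4%. Among all genes tested, 15.3% were called lower and 14.6% higher, so the 30.2% of members called lower lay above the background and the 0 called higher lay below it. The members are bright, and 41 of them passed a stricter filter at the 75% quantile of signal. There 34.1% of members were called lower and 0 higher, against 22.6% and 17.2% of all genes. The member median then lay -0.092 from that of all genes, against -0.12 with the filter used here. Groups did not overlap, with MFAP5 lower, for 21 members (48.8%), against 23.6% of all genes, and with MFAP5 higher for 0, against 22.3%.

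The direction held better than the count of calls. The number of members called lower was 4 without control replicate 1, 6 without control replicate 2, 5 without MFAP5 replicate 2 and 6 without MFAP5 replicate 3. In those fits 9.30%, 14.0%, 11.6% and 14.0% of members were called lower, against 10.5%, 10.5%, 10.1% and 11.3% of all genes. Without control replicate 1 the share thus lay below the background, and without each of the others it lay above but nearer to it. Without control replicate 3 or MFAP5 replicate 1, 15 and 14 members were called lower (34.9% and 32.6%, against 15.1% and 13.7% of all genes). With no intensity trend in the fit, 1 member (PSMB10) was called lower, 2.33% against 9.91% of all genes, so the share then lay below the background. Centring arrays on their medians moved the median of all genes by -0.14 and called 33 members lower (76.7%, against 28.1% of all genes), when 75.5% of all calls were lower, against 51.2% with the deposited scaling. From 31 to 42 members had values below 0 in each alternative run.

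**Figure D1:**
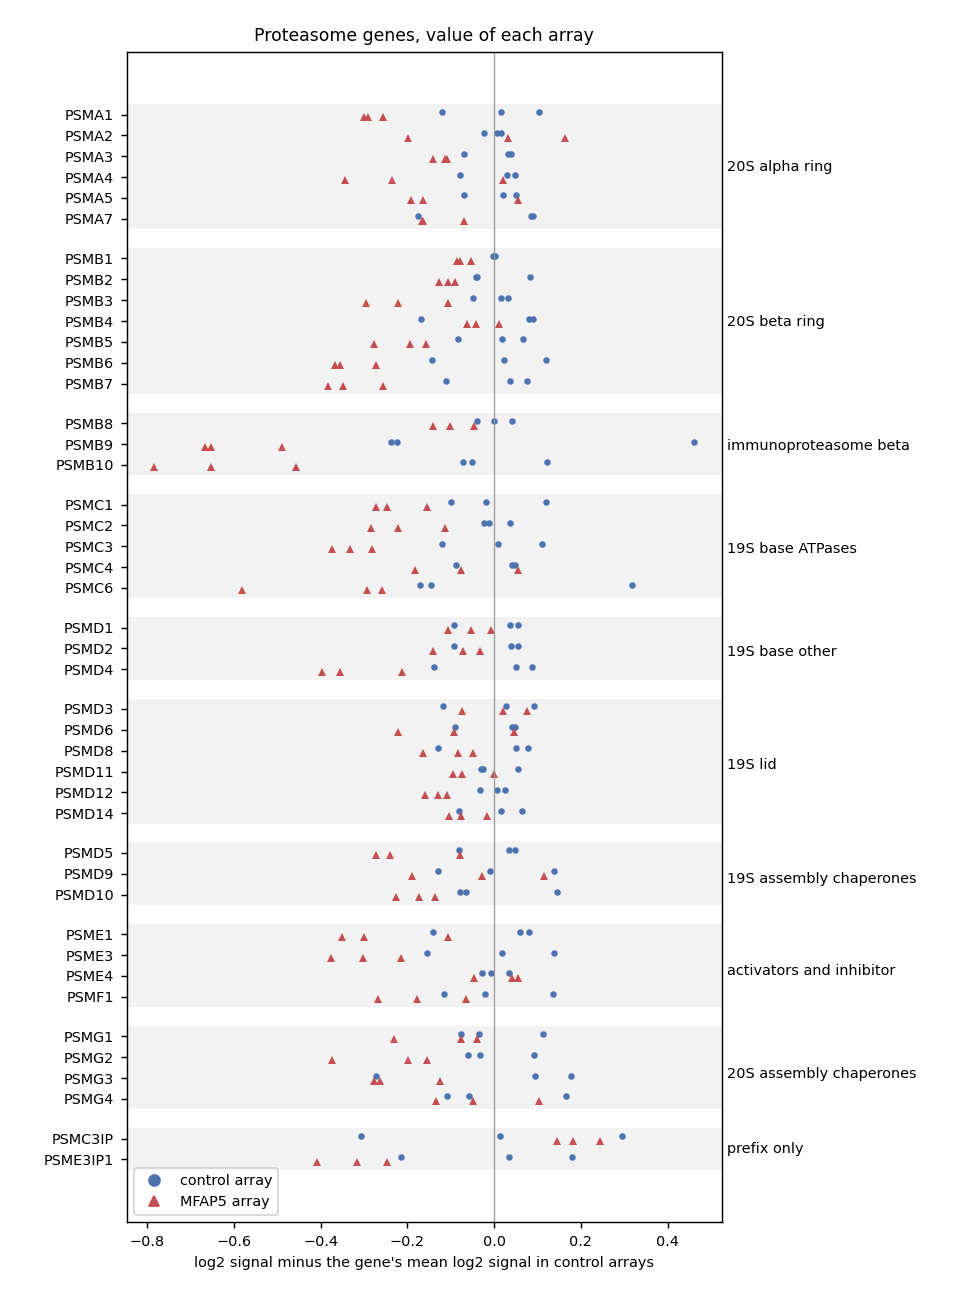
Log2 signal of each array minus the gene's mean over the control arrays (x axis) for the 43 members past the filter, by role. Circles are the 3 control and triangles the 3 MFAP5 arrays. For 21 genes (48.8%, against 23.6% of all genes tested) all triangles lie left of all circles.

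Over all members, each MFAP5 array lay below each control array. The median over the 43 members, relative to the control mean of each gene, was 0.031, 0.035 and -0.071 on the control arrays and -0.13, -0.15 and -0.20 on the MFAP5 arrays, in log2 units. Control replicate 3 lay nearest to the treated arrays. Over all genes tested the same median ran from -0.013 to 0.0078 on the 6 arrays. The constitutive 20S core (13 genes) had medians of -0.11, -0.16 and -0.20 on the MFAP5 arrays against 0.031, 0.032 and -0.048 on the control arrays. The 19S cap (14 genes) had -0.10, -0.087 and -0.15 against 0.038, 0.046 and -0.091, so control replicate 3 lay below MFAP5 replicate 2 and the groups overlapped. The plot of values by array shows the control points spread on both sides of the line and most treated points to its left.

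**Figure D2:**
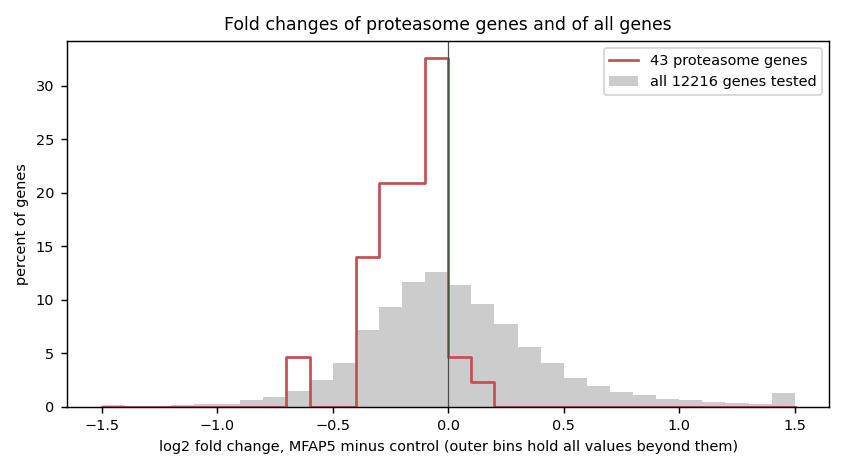
Percent of genes (y axis) in bins of log2 fold change of width 0.1 (x axis) for the 43 proteasome genes (line) and all 12216 genes tested (bars). The proteasome genes lie between -0.63 and 0.19, with 40 of 43 below 0.

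Promoters of the members were searched for short sequence motifs. Whether a motif goes with the direction of change was not tested. RefSeq promoters (GRCh38.p14, 250 bases before to 50 after the start site) were used for 38 of the 44 members, and not for PSMA7, PSMB1, PSMB6, PSMB7, PSMD4 and PSMG3. The antioxidant response element core TGACNNNGC, which NFE2L1 and NFE2L2 bind, was searched on both strands and found in 12 of 38 member promoters (31.6%), against 13.3% of all 35116 promoters of that length. It was in 1 of the 10 promoters of members that fell, PSMB3, and in 11 of the 28 others. The following stretches show that match and examples among members that were not called, with the motif in capitals.
PSMB3 (chr17:38752597-38752685, plus strand): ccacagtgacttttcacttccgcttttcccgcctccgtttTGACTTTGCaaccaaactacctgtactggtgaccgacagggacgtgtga
PSMA4 (chr15:78540620-78540708, plus strand): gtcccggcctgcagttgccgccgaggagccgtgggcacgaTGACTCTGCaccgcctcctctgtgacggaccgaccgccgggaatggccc
PSMD12 (chr17:67366694-67366782, minus strand): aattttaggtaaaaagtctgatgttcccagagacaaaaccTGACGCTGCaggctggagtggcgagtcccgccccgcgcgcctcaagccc
PSME1 (chr14:24136068-24136156, plus strand): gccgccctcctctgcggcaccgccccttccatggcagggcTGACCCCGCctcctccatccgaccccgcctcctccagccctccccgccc
The core of the interferon-stimulated response element, GAAA then any 2 bases then GAAA, on either strand, was in 5 of the 38 (13.2%), PSMB4, PSMB8, PSMB10, PSME1 and PSMG4, against 3.57% of all promoters. The match is shown in capitals for the inducible subunit that fell and for an assembly chaperone that was not called.
PSMB10 (chr16:67936851-67936911, minus strand): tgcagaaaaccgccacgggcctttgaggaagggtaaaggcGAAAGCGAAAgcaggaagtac
PSMG4 (chr6:3258874-3258946, plus strand): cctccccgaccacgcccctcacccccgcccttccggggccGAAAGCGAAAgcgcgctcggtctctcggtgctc
The CCAAT box, searched on both strands, was in 18 of 38 (47.4%; 5 of the 10 that fell and 13 of the 28 others), against 34.6% of all promoters. A match describes these letters only, and binding was not measured.

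The beta ring held the clearest falls of the constitutive core. Of its 7 genes 4 fell (57.1%, against 15.3% of all genes tested) and 3 were not called, with a median log2 fold change of -0.21. PSMB6, which carries the caspase-like activity, had signals of 13502, 14431 and 12027 on the control arrays and 11000.3, 10380.0 and 10297 on the MFAP5 arrays. Every treated value was below every control value, and it fell by 0.33 ± 0.07 (SE) on the log2 scale, or 20.5% (limma adjusted p = 0.00908, n = 3 each). PSMB7, the trypsin-like subunit, had signals of 12118, 11792 and 10654 on the control arrays and 9636, 9041 and 8817 on the MFAP5 arrays, again without overlap, and fell by 0.33 ± 0.07 (SE) (limma adjusted p = 0.00633). A dimmer probe set of PSMB7 had a log2 fold change of 0.48 and was not called (adjusted p = 0.183), and the mean of both was 0.074. PSMB5, the chymotrypsin-like subunit and main target of bortezomib, read 5852, 5269 and 5652 on the control arrays and 4884, 5006 and 4613 on the MFAP5 arrays. It fell by 0.21 ± 0.07 (SE), or 13.5% (limma adjusted p = 0.0412), a call lost when any array but control replicate 2 was left out (adjusted p = 0.0604 to 0.143). The structural subunit PSMB3, whose promoter match is printed above, read 9274, 9180.0 and 8776 on the control arrays and 8422, 7779 and 7398 on the MFAP5 arrays. It fell by 0.21 ± 0.07 (SE) without overlap (limma adjusted p = 0.0413), and its call was lost without control replicate 1, control replicate 2, MFAP5 replicate 2 or MFAP5 replicate 3 (adjusted p = 0.113 to 0.152). PSMB1, PSMB2 and PSMB4 had log2 fold changes of -0.073, -0.11 and -0.032 and were not called, although the groups overlapped only for PSMB4.

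In the alpha ring, which gates entry to the core, 1 of 6 genes past the filter fell (16.7%, near the 15.3% of all genes tested). PSMA1 read 17218, 16181 and 14745 on the control arrays and 13004, 13416 and 13086 on the MFAP5 arrays, with no overlap. It fell by 0.28 ± 0.07 (SE), or 17.8% (limma adjusted p = 0.0125, n = 3 each). Both of the dimmer PSMA1 probe sets fell as well, by 0.30. Without control replicate 1 the call was lost (adjusted p = 0.0555). PSMA2, PSMA3, PSMA4, PSMA5 and PSMA7 had log2 fold changes from -0.19 to -0.0013 and were not called. PSMA8, an alternative alpha subunit of the testis, was too dim to be tested. It read 26.4, 19.1 and 17.3 on the control arrays and 3.42, 3.70 and 35.7 on the MFAP5 arrays, above the brightest Bacillus control on 1 of 6 arrays.

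**Figure D3:**
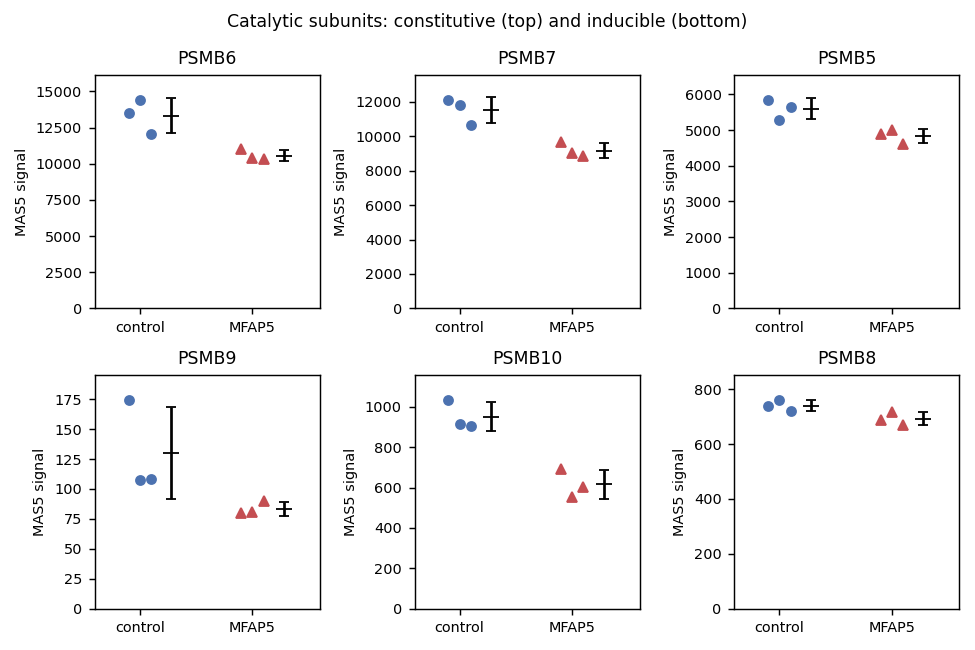
MAS5 signal (y axis, from 0, with a scale of its own in each panel) of the 3 constitutive cutting subunits (top) and the inducible subunit that takes the same place (below each). Points are arrays and bars mean ± SD of 3. Control and MFAP5 values do not overlap in any of the 6 panels, as held with MFAP5 lower for 23.6% of all genes tested. PSMB8 and PSMB9 were not called.

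The inducible subunits held the largest fall of any member tested. PSMB10, which replaces PSMB7, read 1034, 916 and 904 on the control arrays and 692, 551 and 604 on the MFAP5 arrays. The lowest control value was above the highest treated one, and PSMB10 fell by 0.63 ± 0.11 (SE) on the log2 scale, from a mean of 951 ± 71.8 to 616 ± 71.3 (SD, n = 3 each), or 35.4% (limma adjusted p = 0.00223). It was the one member called lower in all 16 alternatives (adjusted p up to 0.0155). PSMB9, which replaces PSMB6, read 174, 107 and 108 on the control arrays and 79.7, 80.5 and 90.2 on the MFAP5 arrays. The groups did not overlap, but control replicate 1 was far above the other two controls, and the log2 fold change of -0.60 (95% interval -1.14 to -0.07) was not called (limma adjusted p = 0.0965). Without that array it was -0.37 (adjusted p = 0.319), while it was called lower with quantile normalization (-0.73, adjusted p = 0.0488) and with arrays centred on their medians (-0.74, adjusted p = 0.0406). PSMB8, which replaces PSMB5, read 740.5, 761 and 719.5 on the control arrays and 689, 717 and 671 on the MFAP5 arrays and had a log2 fold change of -0.096 (95% interval -0.29 to 0.10; limma adjusted p = 0.453).

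The balance of inducible and constitutive subunit was compared within each array. Relative to control, the log2 difference between PSMB10 and PSMB7 changed by -0.30, with array values of -0.20, -0.44 and -0.27 for MFAP5 and 0.05, -0.09 and 0.04 for control. These values did not overlap, and the exact permutation p was 0.1, the smallest that 3 against 3 arrays allow (0.3 adjusted over the 3 comparisons made). The difference changed by -0.27 for PSMB9 and PSMB6 (exact permutation p = 0.4) and by 0.11 for PSMB8 and PSMB5 (exact permutation p = 0.3), each 0.4 when adjusted. With a smallest possible p of 0.1, this test could not pass the threshold at any values, so it does not show whether the balance changed.

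Of the 14 cap members tested, 4 fell (28.6%, against 15.3% of all genes tested). Of the 5 ATPases of the base 3 fell, with a median log2 fold change of -0.22. PSMC3 read 6936, 6468 and 5911 on the control arrays and 5285, 5100.4 and 4957 on the MFAP5 arrays. It fell by 0.33 ± 0.07 (SE), or 20.4%, without overlap (limma adjusted p = 0.00768, n = 3 each). PSMC1 read 6064, 5513 and 5209 on the control arrays and 5019.9, 4621 and 4708 on the MFAP5 arrays. It fell by 0.22 ± 0.07 (SE) (limma adjusted p = 0.0451), and the groups were again apart. PSMC2 read 9145, 9454 and 9079 on the control arrays and 8529.5, 7577 and 7912 on the MFAP5 arrays on its brightest probe set, which fell by 0.21 ± 0.06 (SE) (limma adjusted p = 0.0374). The calls of PSMC1 and PSMC2 were lost without control replicate 1, control replicate 2, MFAP5 replicate 2 or MFAP5 replicate 3 (adjusted p = 0.0876 to 0.167), and the mean over all PSMC2 probe sets was 0.21. PSMC6 read 3506, 3567 and 4922 on the control arrays and 2637, 3221 and 3302 on the MFAP5 arrays, apart but widely spread. Its log2 fold change was the largest of the ATPases, -0.38 with a 95% interval of -0.67 to -0.08, and was not called (limma adjusted p = 0.0617). PSMC4 had a log2 fold change of -0.067.

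PSMD4, a ubiquitin receptor of the base, fell on all 3 of its probe sets past the filter. Its brightest read 10395, 10138 and 8884 on the control arrays and 8446, 7426 and 7645 on the MFAP5 arrays. The groups did not overlap, and it fell by 0.32 ± 0.08 (SE) (limma adjusted p = 0.0133, n = 3 each). The other probe sets fell by 0.41 (adjusted p = 0.00154) and 0.27 (adjusted p = 0.0239). The call on the brightest was lost without control replicate 1 (adjusted p = 0.0577), control replicate 2 (0.0529) or MFAP5 replicate 2 (0.0682). The scaffold subunits PSMD1 and PSMD2 had log2 fold changes of -0.055 and -0.081 and were not called.

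None of the 6 lid genes was called by limma, where 15.3% of all genes tested were called lower (median log2 fold change of the lid -0.078). At an unadjusted p below 0.05, 1 of them (16.7%), PSMD12, was lower on its brightest probe set, against 21.8% of all genes. The lid cuts ubiquitin chains from substrates through PSMD14, which read 7302, 7552 and 6819.6 on the control arrays and 7138, 6846 and 6711 on the MFAP5 arrays. These overlapped, and its log2 fold change was -0.066 (95% interval -0.21 to 0.07; limma adjusted p = 0.484). PSMD12 read 5321, 5183 and 5392 on the control arrays and 4745, 4844 and 4910.1 on the MFAP5 arrays, apart but close, with a log2 fold change of -0.13 (limma adjusted p = 0.121). Its dimmer probe set went the other way, also without overlap. It read 1234, 1284 and 1348 on the control arrays and 1493, 1445 and 1573 on the MFAP5 arrays. Its log2 fold change of 0.22 was not called (limma adjusted p = 0.0555), and the mean of both probe sets was 0.045. PSMD8 had a value of -0.098 (limma adjusted p = 0.351), and PSMD3, PSMD6 and PSMD11 lay between -0.089 and 0.0075. Whether lid and base differ in their change was not tested. With arrays centred on their medians, PSMD8, PSMD12 and PSMD14 were called lower (adjusted p = 0.0191, 0.00772 and 0.0223).

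**Figure D4:**
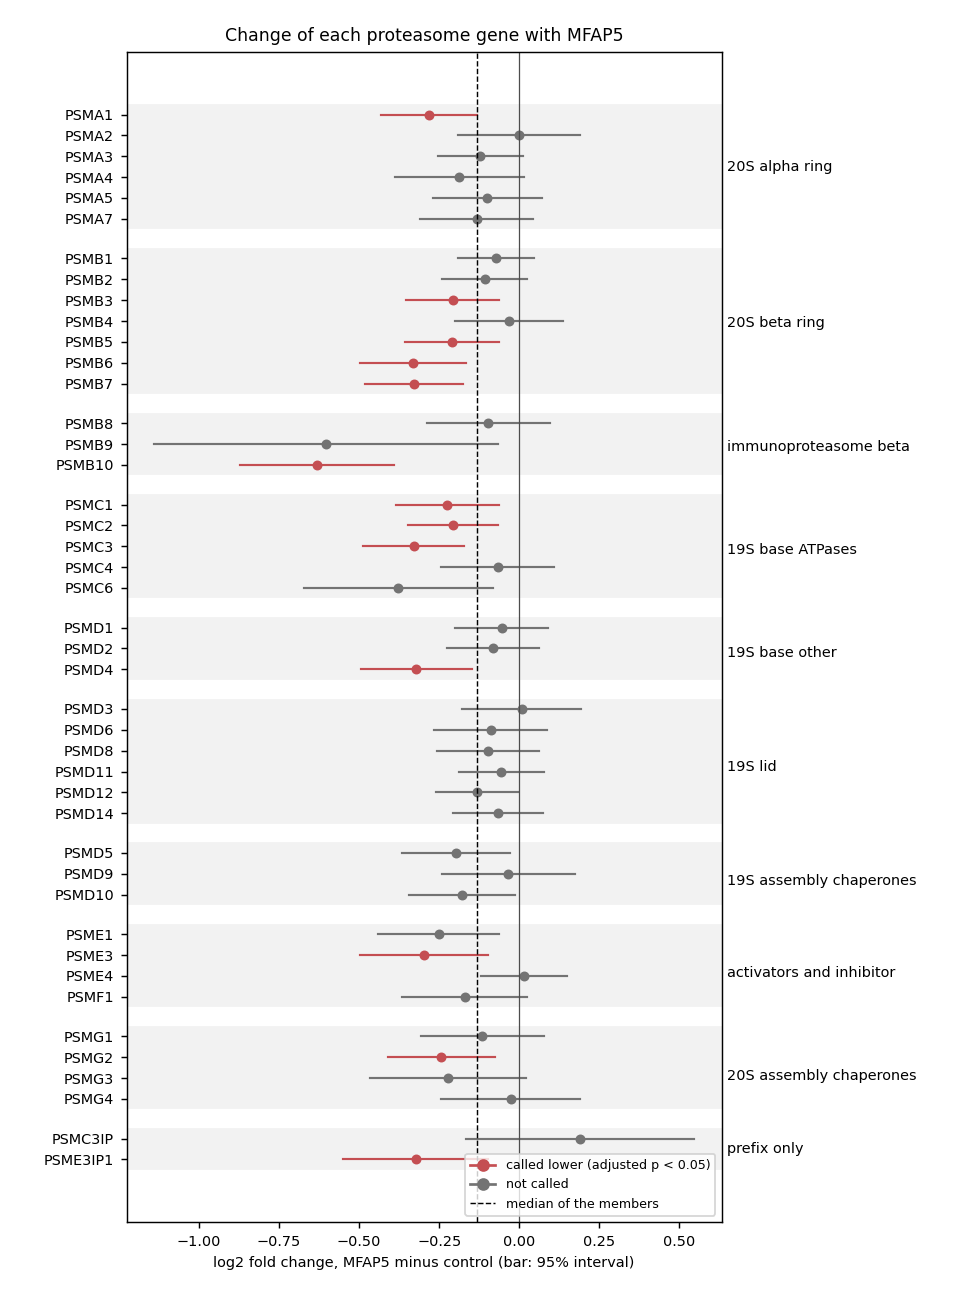
Log2 fold change of each member, MFAP5 minus control (x axis), with its 95% interval from limma, by role. Red marks the 13 genes called lower, grey those not called, and the dashed line the median of -0.13.

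Among the alternative caps, 1 of 4 genes fell (25%, where 15.3% of all genes tested fell). PSME3, a nuclear activator that works without ubiquitin, read 1937, 1782 and 1581 on the control arrays and 1516, 1428 and 1356 on the MFAP5 arrays. It fell by 0.30 ± 0.09 (SE) without overlap (limma adjusted p = 0.0352, n = 3 each). Its 3 other probe sets had log2 fold changes of -0.20, -0.078 and 0.029 and were not called. The call of the brightest was lost without control replicate 1, control replicate 2, MFAP5 replicate 2 or MFAP5 replicate 3 (adjusted p = 0.0968 to 0.129). PSME1, a subunit of the activator induced by interferon, read 5805, 5889 and 5052 on the control arrays and 5177, 4523 and 4366 on the MFAP5 arrays. The groups overlapped, and the log2 fold change of -0.25 was not called (95% interval -0.44 to -0.06; limma adjusted p = 0.0543). It was called lower, at the adjusted p in parentheses, once either control replicate 3 (0.0157) or MFAP5 replicate 1 (0.0223) was left out, with a stricter filter (0.044) and with arrays centred on their medians (0.00456). PSME4, a large activator, read 4947, 5094 and 4879 on the control arrays and 5114, 5163 and 4812 on the MFAP5 arrays, with overlap. It had a log2 fold change of 0.016 (95% interval -0.12 to 0.15) on its brightest probe set, and the inhibitor PSMF1 one of -0.17 (limma adjusted p = 0.185).

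Of the 7 assembly factors past the filter 1 fell (14.3%, near the 15.3% of all genes tested) and 6 were not called. PSMG2, a chaperone that joins alpha subunits into a ring, read 8706, 7831 and 7978 on the control arrays and 6295, 7333 and 7109 on the MFAP5 arrays. It fell by 0.24 ± 0.07 (SE) without overlap (limma adjusted p = 0.0377, n = 3 each), a call lost when any array but control replicate 3 was left out (adjusted p = 0.0532 to 0.136). Its partner PSMG1 and the chaperones PSMG3 and PSMG4 had log2 fold changes of -0.12, -0.22 and -0.027 and were not called. None of the 3 chaperones of the 19S base was called by limma. At an unadjusted p below 0.05, 2 of the 3 (66.7%) were lower, against 21.8% of all genes tested. PSMD5 had a log2 fold change of -0.20 (limma adjusted p = 0.0864) and was called lower without MFAP5 replicate 1 (adjusted p = 0.04). PSMD10, also known as gankyrin, had one of -0.18 (adjusted p = 0.106). PSMD9 had a value of -0.034. Of the genes that share only the prefix, PSME3IP1 read 2060.3, 1862 and 1567 on the control arrays and 1531, 1461 and 1370.5 on the MFAP5 arrays. It fell by 0.32 ± 0.10 (SE) without overlap (limma adjusted p = 0.0415), while its 3 other probe sets were not called, and the call was lost without control replicate 1, control replicate 2, MFAP5 replicate 2 or MFAP5 replicate 3 (adjusted p = 0.105 to 0.148). PSMC3IP had a log2 fold change of 0.19 (limma adjusted p = 0.422).

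Probe sets of one gene did not always move together. The members had 77 probe sets past the filter, of which 19 fell (24.7%) and 3 rose (3.90%), against 11.8% lower and 13.5% higher of all probe sets tested. The 19 include the 13 brightest probe sets already counted as fallen. Of the 34 other probe sets past the filter, 6 fell and 3 rose. Of 6 fallen genes with another such probe set, 2 (PSMA1 and PSMD4) had another that fell and 1 (PSMC2) had one that rose. The dimmer PSMC2 probe set read 531, 465 and 417 on the control arrays and 738, 674 and 602 on the MFAP5 arrays, without overlap. It rose by 0.51 ± 0.12 (SE) on the log2 scale (limma adjusted p = 0.0128), while the brightest fell. For PSME4, a dimmer probe set read 503, 467 and 549.7 on the control arrays and 689.9, 630.3 and 719.6 on the MFAP5 arrays and rose by 0.42 (limma adjusted p = 0.0148), and its other dim one had a log2 fold change of 0.013. The remaining one, of PSMA5, was dim, with signals of 38.3, 45.2 and 67.1 on the control arrays and 89.4, 95.2 and 80.3 on the MFAP5 arrays, and rose by 0.85 (limma adjusted p = 0.0498). Dimmer probe sets of PSMA7 and PSMF1 fell by 0.34 and 0.35 (adjusted p = 0.0167 and 0.0239), where the brightest ones of these genes were not called. These 5 were named after their values were seen.

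**Figure D5:**
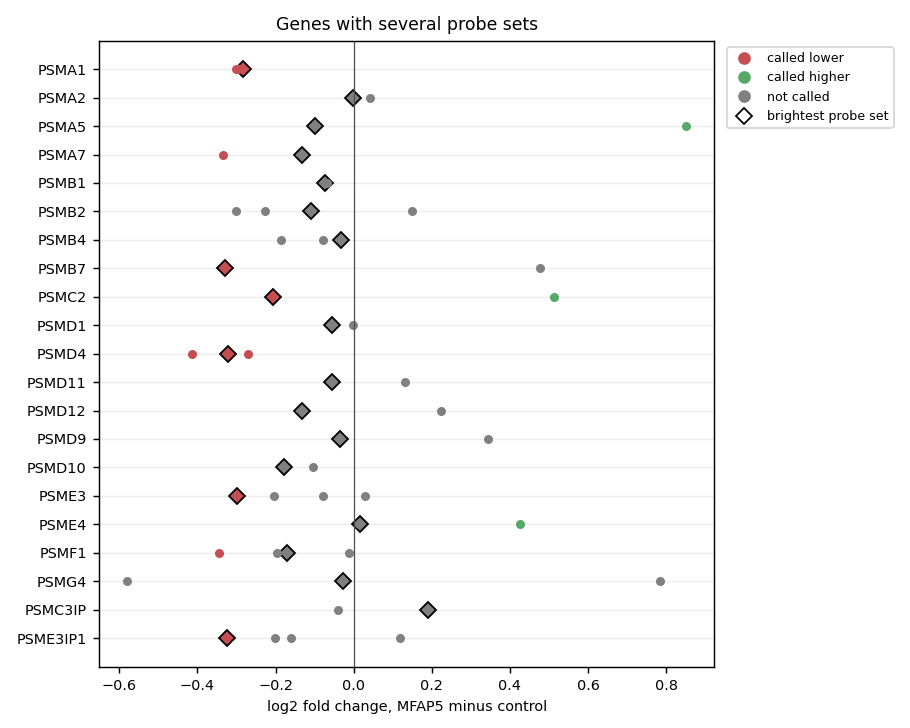
Log2 fold change, MFAP5 minus control (x axis), of every probe set past the filter for members with more than 1. Diamonds are the brightest probe set; green marks the 3 that rose (PSMA5, PSMC2, PSME4) and red those that fell.

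Genes around the proteasome that the prefix does not take moved in both directions. Of 15 tested regulators and remaining subunits (16 listed), 4 fell and 2 rose, beside 15.3% and 14.6% of all genes tested. Whether this list differs from all genes was not tested. ADRM1, a ubiquitin receptor of the cap, read 2462, 2467 and 2332 on the control arrays and 1927, 1913 and 1750.0 on the MFAP5 arrays. It fell by 0.38 ± 0.07 (SE) without overlap (limma adjusted p = 0.00353, n = 3 each). PAAF1, which regulates the joining of base and core, fell by 0.41 ± 0.09 (SE) (adjusted p = 0.00712), and the lid subunit SEM1, named after its value was seen, by 0.28 ± 0.06 (SE) (adjusted p = 0.00759). NGLY1, a deglycosylase needed to activate NFE2L1, read 2025, 2306 and 2026 on the control arrays and 1526, 1480.1 and 1458 on the MFAP5 arrays. It fell by 0.51 ± 0.08 (SE) (limma adjusted p = 0.00107). With all their probe sets averaged, NGLY1 and PAAF1 were not called (adjusted p = 0.181 and 0.378). NFE2L1 itself had a log2 fold change of 0.13 (95% interval -0.06 to 0.32; limma adjusted p = 0.3), and the maturation factor POMP one of 0.079 (adjusted p = 0.451). The proteasome-associated stress gene ZFAND2A rose by 0.46 (adjusted p = 0.0112), a call lost with arrays centred on hybridisation controls (0.0741), and NFE2L2, named after its value was seen, by 0.31 (adjusted p = 0.0211).

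Ubiquitin and its carriers showed no called change. Of 11 tested genes (19 listed) for ubiquitin, its activation and its delivery, 0 rose and 0 fell by limma, and also 0 at an unadjusted p below 0.05 (median log2 fold change -0.020). At that unadjusted p, 20.6% of all genes tested were higher and 21.8% lower. Of 11 tested genes (15 listed) of the interferon route and peptide loading, which act with the immunoproteasome in antigen presentation, 5 rose and 2 fell. Among all genes tested 14.6% were called higher and 15.3% lower, and the list was not tested against them. IRF9, a transcription factor of the interferon response, rose by 0.74 (adjusted p = 0.00261). TAPBP, B2M, HLA-B and HLA-C, named after their values were seen, rose by 0.39, 0.25, 0.39 and 0.25, the HLA genes on probe sets that can share probes among them. TAP1, a peptide transporter and neighbour of PSMB9, read 724, 761 and 801 on the control arrays and 547, 497 and 509 on the MFAP5 arrays. It fell by 0.56 ± 0.09 (SE) without overlap (limma adjusted p = 0.0021, n = 3 each). HLA-E fell by 0.43 ± 0.09 (SE) (adjusted p = 0.00578) on such a probe set, and its value was 0.36 once these were left out (adjusted p = 0.0898).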

How the data were processed

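Gene expression of OVCA432 cells was measured on 6 arrays, 3 with MFAP5 and 3 with solvent, grouped by sample title. Per the submitters' processing notes the authors used MAS5 (version not given), and they deposited its signal, a linear intensity, for each probe set. MAS5 summarises each array by itself, and its scaling hides a change shared by most transcripts. All 328050 deposited intensities were above 0. Members and lists were chosen with earlier results of these data known.

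Genes were named through the platform annotation (41091 probe sets with 1 symbol, 1801 with several, 11721 with none), and all 44 member symbols were found in RefSeq (GRCh38.p14) by Entrez identifier. PSMA3-AS1, PSMB8-AS1, PSMD6-AS2, PSMG3-AS1, PSMD7-DT and PSMD14-DT, listed there as non-coding, were left out. Log2 signals of probe sets at or above the median mean (a signal of 53.7) were fitted in R 4.3.3 by limma 3.58.1 (lmFit, eBayes with an intensity trend, two-sided, Benjamini-Hochberg over 27307 probe sets, threshold 0.05). Changes within arrays were tested by exact permutation, two-sided. The fit was run on simulated data with independent normal noise as a check of the code, not of the calls reported here. No depth exists for arrays, and their number limits precision. Named genes were up to 4 called members per role with the largest change, or the 2 with the smallest p where none was called, a fixed set of catalytic, cap and regulator genes, and up to 3 called genes per associated list. The remaining fallen members were all named. Alternatives covered scaling, filters, an added 50, the trend, the replicate number, the probe set rule and each array left out; leaving out _x_at probe sets was added after seeing the data.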

Additional observations from a re-analysis of the deposited data

How the results depend on the processing

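The number of members called lower, 13, became 33 with arrays centred on their medians, 7 with centring on hybridisation controls, 6 with no filter, 1 with no intensity trend and 8 with the mean of all probe sets, which also called 1 member (PSMA5) higher. The share of all genes called lower moved as well. With hybridisation controls 16.3% of members were called lower, against 9.23% of all genes. With no filter these shares were 13.6% and 7.48%, and with the mean of all probe sets 18.6% and 10.9%. Leaving out 1 array at a time gave 4 to 15 lower. The member median of -0.13 became -0.27 with arrays centred on their medians and lay between -0.18 and -0.12 in the other 15 alternatives. Centring arrays moves all genes alike, so it cannot change the distance of the members from the other genes. Centring on medians also called PSMD5, PSMD10 and PSMF1 lower. With the mean of all probe sets, PSMB7 (0.074), PSMC2 (0.21), PSMD12 (0.045) and HLA-E (0.018) changed sign, and 31 members were below 0, against 40 in the main fit. Without _x_at probe sets HLA-E changed sign (0.36). None of these genes was called there. Among the named genes, values not called in the main fit changed sign 6 times over the alternatives, that of PSMD12 included. For PSMB7, PSMC2 and PSMD12 a dimmer probe set had a positive value. Of 208 refits of the 13 fallen members, 139 kept the call. Whether the replicate numbers pair the arrays was not settled. Deviations of arrays with the same number correlated at 0.089, -0.007 and 0.166. Of the 6 arrays, 3 correlated best with their own number in the other group. A replicate block called 15 members lower (34.9%, against 18.0% of all genes), PSME1 (adjusted p = 0.0151) among them. Low signals scatter most in log2 units, which limits PSMB9 and the dim probe set of PSMA5.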

Other observations

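Non-coding neighbours of proteasome genes were set aside by the rule, and none was called. PSMG3-AS1, antisense to the assembly factor gene PSMG3, read 76.9, 71.6 and 77.2 on the control arrays and 137, 87.5 and 107 on the MFAP5 arrays, with every treated value above every control value and a log2 fold change of 0.53 (limma adjusted p = 0.127). The brightest probe sets of PSMA3-AS1, PSMD6-AS2 and PSMB8-AS1 had log2 fold changes of -0.15, 0.23 and 0.083 and overlapping groups. The divergent transcripts PSMD7-DT and PSMD14-DT were below the brightest Bacillus control on all 6 arrays.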
